A study of Mus musculus with 9 samples.

Results

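The 8 injury-induced neuronal effector genes Ecel1, Sprr1a, Gal, Gadd45a, Tnfrsf12a, Anxa2, Lgals1 and Adcyap1 were followed in cells picked from mouse retina after optic nerve crush, among 50764 genes in the deposited count table. They were chosen by symbol, each matched 1 row, and all were read in 9 libraries. The libraries were made from adult male wild-type mice whose eyes had received an adeno-associated virus (AAV) and whose optic nerve had been crushed 14 days earlier. The virus coded for Olig2 in 3 libraries, for Olig3 in 3 and for green fluorescent protein (GFP) in 3. Both factors belong to the basic helix-loop-helix class of DNA-binding proteins and pattern neural progenitors, and Olig2 also specifies oligodendrocytes. Every group carried both virus and crush, and the sources used here name no promoter for the virus. Retinal cells were enriched with magnetic beads for CD90.2, the Thy1 surface protein, fluorescent ones were then collected singly, and each library pooled a small number of them, given as 10 to 15, 10 to 20 or 15 to 20 in different parts of the labels. Whether each library had its own mice is not stated, so the p-values below rest on library-to-library spread that could be technical. Uninjured retina was not analysed here, so induction by the crush itself was not measured.

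When the axon of a neuron is cut or crushed, stress kinases activate transcription factors such as Jun and Atf3, and the neuron changes from a transmitting to a growth or death program. The effector genes that follow include neuropeptides, which are released and act on receptors of neighbouring cells, and proteins of the membrane and cytoskeleton. In retinal ganglion cells, whose axons form the optic nerve, several of these genes are barely transcribed in the intact eye and are widely used as marks of axon injury.

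Total counts per library ran from 5355691 to 6979851, so that the upper limit set by a count of 0, taken as 3 counts, was 0.430 to 0.560 CPM (counts scaled to the library total). These limits and all intervals cover counting error only, since reads were amplified without molecular identifiers. The label of the cells was checked against 17 ganglion cell markers, which held 0.0252 to 0.0472% of the counts in the Olig2 libraries, 0.0267 to 0.0369% in the Olig3 libraries and 0.0956 to 0.196% in the GFP libraries. The 14 rod markers held 8.45 to 15.0%, 6.54 to 16.5% and 5.08 to 7.66% in the same groups. Ganglion cell transcripts were thus a small part of every library. Rbpms, Slc17a6, Thy1 and Sncg, which define ganglion cells, had 0 counts in Olig3 library 3 and were detected in the other 8 libraries. With pooled cells, fewer ganglion cells and less of a transcript per ganglion cell cannot be told apart. Olig3 libraries 1 and 3 had 16188 and 14434 detected genes, against 18184 to 21338 in the other libraries, and stood apart by that measure. Olig2 was read at 16.3, 23.1 and 3.77 CPM in the Olig2 libraries and at 0 counts in the GFP libraries, and Olig3 at 25.4, 28.3 and 87.6 CPM in the Olig3 libraries and at 1.95, 0 and 5.36 CPM in the GFP libraries.

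All 8 genes had lower mean levels in the Olig2 and in the Olig3 libraries than in the GFP libraries. Ecel1 was the 1 member that passed the test over all genes, at 0 counts in every Olig3 library, where 0.109% of all tested genes were called lower with Olig3 and 0.103% with both factors together. Ecel1, Gal, Gadd45a, Tnfrsf12a and Lgals1 were each lower in all 6 libraries that received an Olig factor than in any GFP library, as were 4.26% of all tested genes. The levels below are CPM scaled by TMM factors, which correct for the makeup of each library. A gene was called where edgeR's quasi-likelihood test gave a Benjamini-Hochberg adjusted p below 0.05 over 15609 tested genes.

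**Figure D1:**
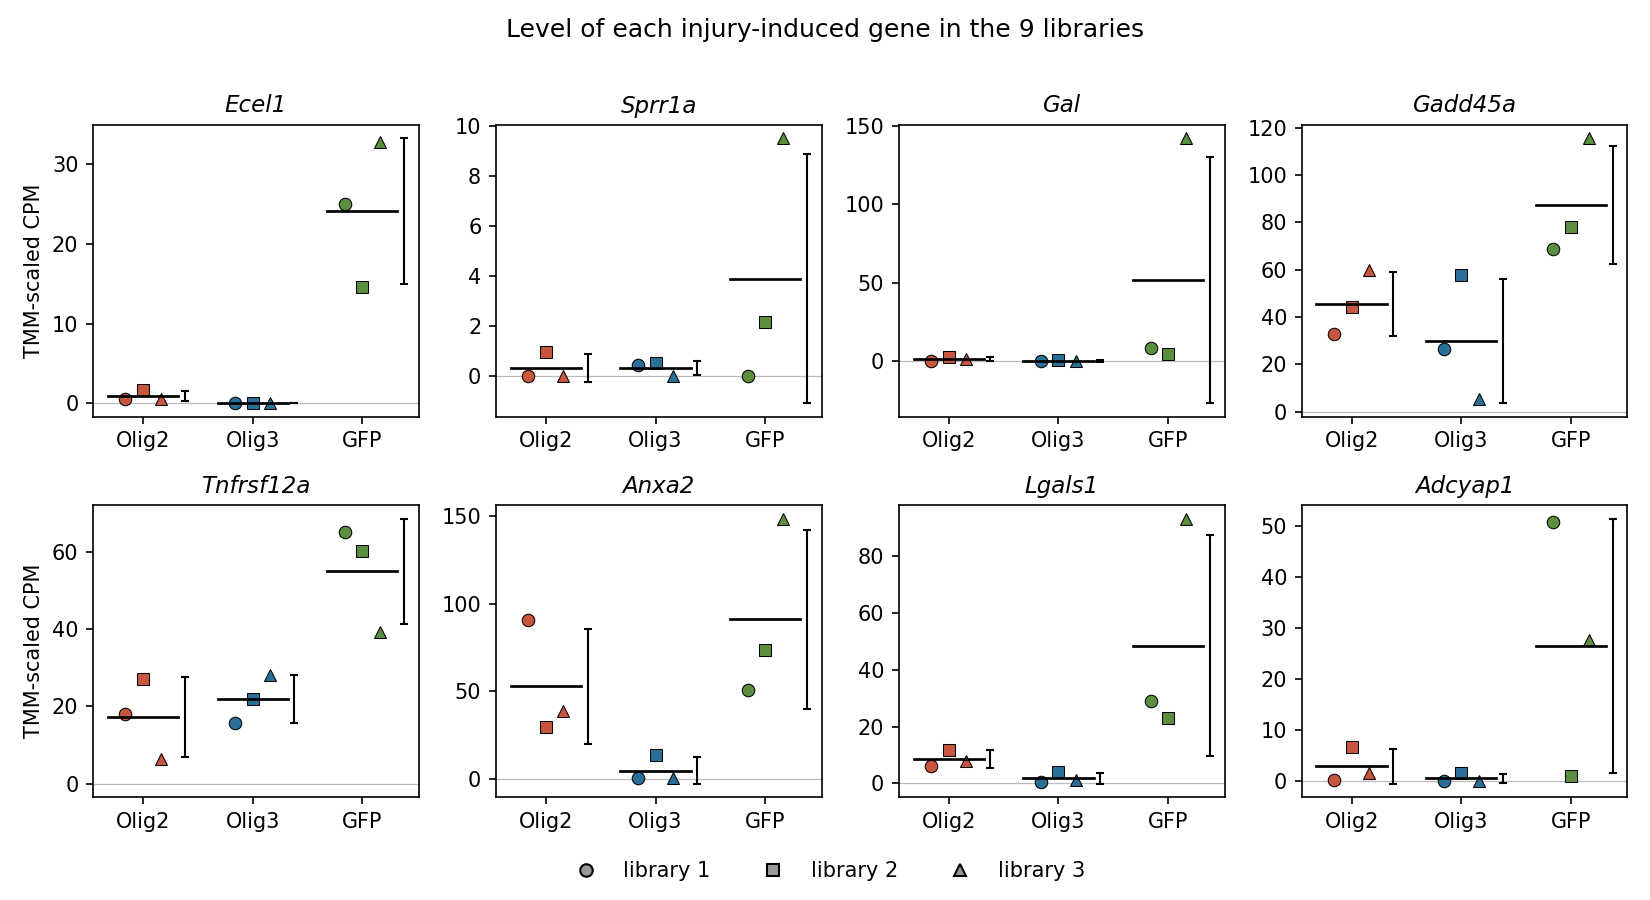
TMM-scaled CPM (linear vertical axes, 1 panel per gene) of the 8 genes in the Olig2, Olig3 and GFP libraries; each symbol is 1 library, the horizontal line the mean and the bar beside it ± 1 SD (n = 3 per group). Ecel1 lay between 0 and 1.67 CPM in the 6 Olig libraries and between 14.6 and 32.8 CPM in the GFP libraries, while Gal at 142 CPM stood out in GFP library 3 alone.

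Ecel1 (ENSMUSG00000026247, chr1:87147655-87156521 of mm10, minus strand, 20 merged exons) encodes a membrane-bound endopeptidase-like protein of neurons that is induced by nerve injury. It had 0.571, 1.67 and 0.538 CPM in Olig2 libraries 1, 2 and 3 (4, 7 and 3 counts), 0 counts in each of the 3 Olig3 libraries, and 25.0, 14.6 and 32.8 CPM in GFP libraries 1, 2 and 3 (167, 115 and 245 counts). The highest Olig library was therefore below the lowest GFP library. Against 3 counts over the whole Olig3 group, Ecel1 was at least 140-fold lower with Olig3 than with GFP. This passed the test (edgeR adjusted p = 0.0363), but the call was lost without any 1 of 8 libraries, with adjusted p = 0.0681 to 0.164, and held without Olig3 library 2, at 0.0169. The bound became 86.2-fold without Olig3 library 1 and 86.0-fold without Olig3 library 3. Leaving out both Olig3 libraries with few detected genes kept 1 Olig3 library, assumed to vary like the other groups, and gave an adjusted p of 0.154, and a fit of the Olig3 and GFP libraries alone gave 0.168.

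With Olig2, Ecel1 averaged 0.926 ± 0.644 CPM against 24.1 ± 9.13 CPM with GFP (SD, n = 3 each), 26.1-fold lower (log2 change -4.70, SE 1.03, edgeR adjusted p = 0.379). This was not called, although DESeq2 gave an adjusted p of 3.37e-06 and a fit of the Olig2 and GFP libraries alone gave 0.0353. With both factors in 1 contrast against GFP, Ecel1 was called (log2 change -7.47, SE 0.93, edgeR adjusted p = 0.0267). That call held without each Olig3 library (0.0125 to 0.0295) and was lost without each GFP library (0.0771 to 0.134) or each Olig2 library (0.0764 to 0.102). A two-sided exact permutation test on the CPM of 6 against 3 libraries gave p = 0.0238, the smallest that these numbers allow. Between the factors, 14 counts in the Olig2 group stood against 0 in the Olig3 group, and the difference was not called (edgeR adjusted p = 0.694).

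The promoter of Ecel1 is shown because this gene carried the call and because Olig factors bind E-boxes, the sites of helix-loop-helix proteins. The window is chr1:87156307-87156606 of GRCm38.p6 (RefSeq, minus strand), 250 bases before to 50 after the start site. Capitals mark a match to the E-box CAGATG (reverse complement CATCTG) on either strand, here 237 bases before the start site. No match to the E-boxes CAGCTG or CATATG, to the AP-1 site TGACTCA (reverse complement TGAGTCA) or to the cyclic AMP response element TGACGTCA lay in this window.
Ecel1: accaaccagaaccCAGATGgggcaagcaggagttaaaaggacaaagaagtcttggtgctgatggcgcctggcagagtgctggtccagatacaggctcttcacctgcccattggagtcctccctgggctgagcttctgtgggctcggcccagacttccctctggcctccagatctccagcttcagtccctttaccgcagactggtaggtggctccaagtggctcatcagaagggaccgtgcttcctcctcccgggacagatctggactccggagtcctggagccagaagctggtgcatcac
Of 32851 RefSeq windows of this length in mouse, 17.2% held CAGATG on either strand, so the match describes the sequence and marks no bound site.

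Gal and Adcyap1 encode neuropeptides. Gal (ENSMUSG00000024907, chr19:3409915-3414544, minus strand, 6 merged exons) gives galanin, which signals through G-protein-coupled receptors and is raised in many axotomised neurons. It had 0, 2.62 and 1.79 CPM in Olig2 libraries 1, 2 and 3, 0, 0.750 and 0 CPM in Olig3 libraries 1, 2 and 3, and 8.23, 4.57 and 142 CPM in GFP libraries 1, 2 and 3. The Olig libraries lay below every GFP library, but the GFP mean of 51.6 ± 78.3 CPM rested mainly on GFP library 3, whose level was 31.1 times that of GFP library 2, and was 6.40 CPM without it. In the Olig3 group 3 counts in all gave a pooled ratio of 306-fold below GFP (95% counting interval 105 to 1488), with an edgeR adjusted p of 0.145. With Olig2 the log2 change was -5.16 (SE 1.61, edgeR adjusted p = 0.667), and with both factors together -6.54 (SE 1.32, edgeR adjusted p = 0.0845; exact permutation p = 0.0238). Without GFP library 3 the log2 change was -2.11 with Olig2 and -4.71 with Olig3.

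Adcyap1 (ENSMUSG00000024256, chr17:93199017-93206537, plus strand, 5 merged exons) gives PACAP, a peptide that raises cyclic AMP in its target cells and protects ganglion cells in models of eye injury. It had 0.285, 6.68 and 1.61 CPM in Olig2 libraries 1, 2 and 3, 0, 1.50 and 0 CPM in Olig3 libraries 1, 2 and 3, and 50.9, 1.02 and 27.7 CPM in GFP libraries 1, 2 and 3. GFP library 2 lay within the range of the Olig libraries, so the groups overlapped. The log2 change was -3.23 (SE 1.62) with Olig2 and -5.86 (SE 1.88) with Olig3, with edgeR adjusted p of 1.0 and 0.267. Omission of GFP library 1 gave -2.33 and omission of Olig2 library 2 gave -4.79 with Olig2, and with Olig3 the change was -10.44 without Olig3 library 2, which leaves 0 counts in that group. DESeq2 called Adcyap1 with Olig3 (adjusted p = 0.0104). Both factors together gave an exact permutation p of 0.0952 over 6 against 3 libraries. Within the GFP group the 2 peptides ranked the libraries differently, with Gal highest in library 3 and Adcyap1 highest in library 1.

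Most receptors of these peptides, named here after their values were seen, were read at low levels. Galr1, Galr2 and Galr3, the galanin receptors, averaged 0 to 0.476 CPM in each group, and the PACAP receptor Adcyap1r1 averaged 2.12 CPM with Olig2, 0.417 with Olig3 and 0.465 with GFP. Vipr2, a receptor for PACAP and for vasoactive intestinal peptide, had 16.6 ± 1.68 CPM with Olig2, 25.9 ± 4.52 with Olig3 and 13.6 ± 6.94 with GFP (SD, n = 3 each). These genes other than Vipr2 did not pass the filter on low counts and were not tested, and Vipr2 was not called in a comparison against GFP (edgeR adjusted p = 1.0, 0.522 and 0.782 for Olig2, Olig3 and both together).

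Tnfrsf12a (ENSMUSG00000023905, chr17:23675445-23677468, minus strand, 2 merged exons) encodes Fn14, the small receptor for the cytokine TWEAK, and is induced in injured neurons and other damaged tissue. It had 18.0, 27.2 and 6.46 CPM in Olig2 libraries 1, 2 and 3, 15.8, 22.0 and 28.2 CPM in Olig3 libraries 1, 2 and 3, and 65.2, 60.2 and 39.4 CPM in GFP libraries 1, 2 and 3. No Olig library reached the lowest GFP library, and the Olig2 and Olig3 libraries overlapped. The level was 3.19-fold lower with Olig2 (log2 change -1.68, SE 0.51, edgeR adjusted p = 0.665) and 2.5-fold lower with Olig3 (log2 change -1.32, SE 0.50, edgeR adjusted p = 0.332), both uncalled, and both factors together gave an exact permutation p of 0.0238. Tnfsf12, which encodes its ligand TWEAK, had a median of 16.7 CPM with Olig2, 17.0 with Olig3 and 9.58 with GFP, was named after its values were seen and was not called (edgeR adjusted p = 1.0, 0.631 and 0.723 for Olig2, Olig3 and both together). Traf5 and Traf3, adaptors of receptors of this family, had log2 changes above 0 with both factors together and were not called (edgeR adjusted p = 0.517 and 0.689), while those of Traf2 and Traf1 were -0.38 and -0.12 (edgeR adjusted p = 0.898 and 0.984), Traf1 being 3.23 with Olig2 and -3.46 with Olig3.

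Anxa2 and Lgals1 encode proteins of the membrane surface that many cell types also make. Anxa2 (ENSMUSG00000032231, chr9:69453620-69491795, plus strand, 15 merged exons) gives annexin A2, which binds phospholipid and actin in a calcium-dependent way. It had 90.5, 29.3 and 38.4 CPM in Olig2 libraries 1, 2 and 3, 0.147, 13.3 and 0.440 CPM in Olig3 libraries 1, 2 and 3, and 50.7, 73.5 and 149 CPM in GFP libraries 1, 2 and 3. The Olig2 libraries overlapped the GFP libraries, whereas the Olig3 libraries lay below both other groups. The mean was 19.7-fold lower with Olig3 than with GFP (log2 change -4.41, SE 1.13, edgeR adjusted p = 0.161) and 1.72-fold lower with Olig2 (log2 change -0.78, SE 0.96, edgeR adjusted p = 1.0). Without Olig3 library 2 the log2 change with Olig3 was -8.18 and Anxa2 was called (edgeR adjusted p = 0.00866), as it was by DESeq2 over all libraries (adjusted p = 0.0388), and with Olig2 the change ranged from -1.46 if Olig2 library 1 was left out to -0.23 if GFP library 3 was. Olig3 against Olig2, the direct test of a difference between the factors, gave a log2 change of -3.63 (SE 1.10, edgeR adjusted p = 0.865), and without Olig3 library 2 Anxa2 was called in this comparison (log2 change -7.40, edgeR adjusted p = 0.0208).

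S100a10, whose product forms a complex with annexin A2, averaged 6.74 ± 1.58 CPM with Olig2, 4.99 ± 4.35 with Olig3 and 34.0 ± 21.8 with GFP (edgeR adjusted p = 0.361 for both factors together). Lgals1 (ENSMUSG00000068220, chr15:78926725-78930465, plus strand, 5 merged exons) gives galectin-1, which binds galactosides and promotes axon growth after injury in rodents. It had 5.99, 11.9 and 7.71 CPM in Olig2 libraries 1, 2 and 3, 0.295, 4.0 and 1.17 CPM in Olig3 libraries 1, 2 and 3, and 29.2, 23.1 and 93.3 CPM in GFP libraries 1, 2 and 3. The 3 groups did not overlap, with Olig3 lowest and GFP highest, and the GFP mean was 48.5 ± 38.9 CPM (SD, n = 3) and 26.1 CPM without library 3. Lgals1 was 26.6-fold lower with Olig3 (log2 change -4.79, SE 0.94, edgeR adjusted p = 0.0742) and 5.68-fold lower with Olig2 (log2 change -2.51, SE 0.83, edgeR adjusted p = 0.712), and both factors together gave an adjusted p of 0.0585 and an exact permutation p of 0.0238. It was called without Olig3 library 2, by DESeq2 and at an adjusted p of 0.1 in the comparison with Olig3.

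Markers of some other cells that make these proteins moved with GFP library 3, where Anxa2 and Lgals1 were highest. The 11 Muller glia and astrocyte markers held 0.816% of the counts there, against 0.435 and 0.442% in GFP libraries 1 and 2, 0.337 to 0.459% in the Olig2 libraries and 0.106 to 0.405% in the Olig3 libraries. The 10 endothelial and pericyte markers held 0.0256% in GFP library 3, where 8 of them had 0 counts, and 0.00400 to 0.00955% in the other libraries. The 10 microglia and macrophage markers were instead highest in GFP library 2, at 0.0631%, against 0.0271% in GFP library 3. The part of these cells in the levels of Anxa2 and Lgals1 was not tested. The 8 fibroblast markers were near 0, at up to 0.000541% in any library.

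Sprr1a (ENSMUSG00000050359, chr3:92483952-92485895, minus strand, 2 merged exons) encodes a small proline-rich protein of epithelia that sensory neurons express after axotomy. Its mean per kilobase was the lowest of the members in the GFP group, and it was the 1 that did not pass the filter on low counts. By library it was lowest in GFP library 1 only, since Adcyap1 was lower in GFP library 2 and Adcyap1 and Ecel1 in GFP library 3. Sprr1a had 0, 0.954 and 0 CPM in Olig2 libraries 1, 2 and 3, 0.442, 0.500 and 0 CPM in Olig3 libraries 1, 2 and 3, and 0, 2.16 and 9.51 CPM in GFP libraries 1, 2 and 3. The groups overlapped, since GFP library 1 also had 0 counts, and an exact permutation test of both factors together gave p = 0.167. The pooled ratio was 16.8-fold below GFP with Olig2 (4 against 88 counts, 95% counting interval 6.32 to 62.9) and 14.1-fold with Olig3 (5 against 88 counts, 5.80 to 44.4), and GFP library 3 held 71 of the 88 counts. Without that library the GFP mean was 1.08 CPM. The 10 markers of surface epithelium, the other main source of Sprr1a, held at most 0.000501% of the counts in any library.

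Promoters of Sprr1a and Anxa2 are shown because they held the AP-1 site TGACTCA (reverse complement TGAGTCA), the site of Jun and Fos proteins. Capitals mark that site and the E-boxes CAGATG (reverse complement CATCTG) and CAGCTG, on either strand, in RefSeq windows of GRCm38.p6 from 250 bases before to 50 after the start site. The Sprr1a window is chr3:92485832-92486131 (minus strand) and the Anxa2 window chr9:69453433-69453732 (plus strand).
Sprr1a: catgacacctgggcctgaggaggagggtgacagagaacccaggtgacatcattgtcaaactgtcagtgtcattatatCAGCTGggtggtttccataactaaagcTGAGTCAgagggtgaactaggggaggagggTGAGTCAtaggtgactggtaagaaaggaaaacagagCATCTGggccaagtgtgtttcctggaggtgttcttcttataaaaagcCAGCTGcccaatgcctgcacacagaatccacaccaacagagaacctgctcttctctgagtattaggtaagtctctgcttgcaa
Anxa2: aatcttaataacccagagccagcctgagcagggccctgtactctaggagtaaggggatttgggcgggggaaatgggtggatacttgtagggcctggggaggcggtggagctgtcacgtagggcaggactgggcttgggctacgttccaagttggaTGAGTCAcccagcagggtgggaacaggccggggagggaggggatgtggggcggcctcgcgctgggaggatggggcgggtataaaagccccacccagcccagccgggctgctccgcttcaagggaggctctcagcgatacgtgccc
The AP-1 matches began 146 and 116 bases before the start site of Sprr1a and 95 bases before that of Anxa2. Of all 32851 windows, 5.20% held this site, 16.3% CAGCTG, 3.91% CATATG and 1.79% the cyclic AMP response element TGACGTCA. The windows of Gadd45a, Tnfrsf12a, Gal and Adcyap1 held none of the 5 motifs.

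Gadd45a (ENSMUSG00000036390, chr6:67035096-67037457, minus strand, 2 merged exons) encodes a stress sensor that acts in growth arrest and DNA repair and rises early in ganglion cells after axon injury. It had 32.8, 44.3 and 59.7 CPM in Olig2 libraries 1, 2 and 3, 26.4, 57.5 and 5.28 CPM in Olig3 libraries 1, 2 and 3, and 68.5, 77.8 and 116 CPM in GFP libraries 1, 2 and 3. Every Olig library lay below the lowest GFP library, and the Olig2 and Olig3 libraries overlapped. Gadd45a was 1.91-fold lower with Olig2 (log2 change -0.94, SE 0.61, edgeR adjusted p = 1.0) and 2.94-fold lower with Olig3 (log2 change -1.56, SE 0.62, edgeR adjusted p = 0.348), and both factors together gave an exact permutation p of 0.0238. Without a stated strand setting its reads cannot be told apart from those of E230016M11Rik, a transcript of the opposite strand that shares 337 exonic bases with it and had 214 to 765 counts per library.

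Of the 7 tested members, 0 were called with Olig2 by edgeR or limma-voom and 1, Ecel1, by DESeq2, while 4 were lower at an unadjusted p below 0.05. Over all genes tested by edgeR 0.0128% were called lower and 2.08% were lower at an unadjusted p below 0.05. DESeq2 called 0.394% of its 29429 genes with Olig2, in either direction. With Olig3, 1 of 7 was called lower by edgeR, against 0.109% of all tested genes, and 7 were lower at an unadjusted p below 0.05, against 6.37%. With both factors together the called member was again Ecel1, against 0.103% of all tested genes, and 7 were lower at an unadjusted p below 0.05, against 5.14%. The Olig2 libraries lay wholly below the GFP libraries in 5 of 8 members and the Olig3 libraries in 6 of 8, where 8.35 and 10.0% of all tested genes did so, and both factors together in 5 of 8 where 4.26% did so. Ecel1 and Gal met the filter through their counts in the GFP libraries, and Adcyap1 through GFP libraries 1 and 3 with Olig2 library 2. The counts over tested members therefore describe the genes and are no separate support, and both factors share the same 3 GFP libraries.

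The median difference over all 8 genes in mean log2 CPM (prior count 2) was -2.10 with Olig2 and -4.56 with Olig3, beside 0.06 and -0.18 for all tested genes. Setting Ecel1 at its bound with Olig3 could not move that median, since Ecel1 lay below it either way. Between the factors, 0 members were called for Olig3 against Olig2 by edgeR, limma-voom or DESeq2, and 3 were lower at an unadjusted p below 0.05, where 0.0384% of tested genes were called lower and 3.05% were lower at that p. Ecel1, Anxa2 and Lgals1 did not overlap between the factors and were lower with Olig3, where 8.69% of tested genes did so. An exact permutation test of 3 against 3 libraries gives no p below 0.1, so none is quoted for a single factor.

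**Figure D2:**
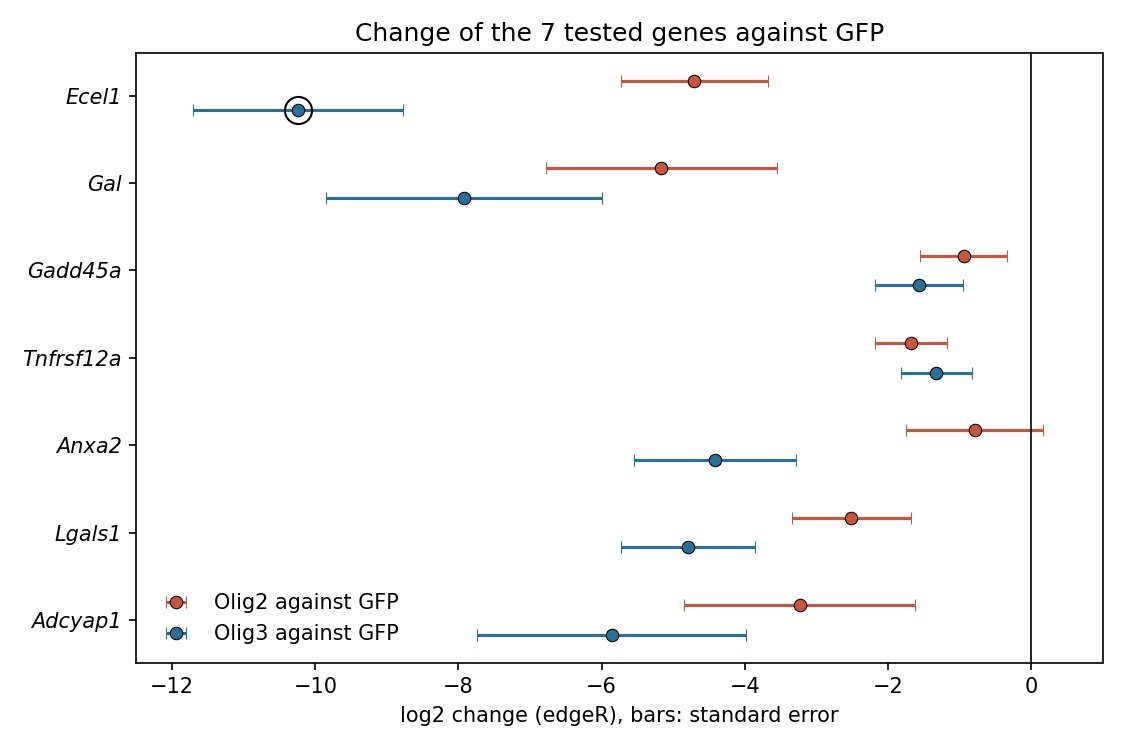
The log2 change (horizontal axis, edgeR) of the 7 tested genes for Olig2 against GFP and Olig3 against GFP, with standard errors as bars; a ring marks an adjusted p below 0.05. All 14 changes lie below 0, from -0.78 for Anxa2 with Olig2 to -10.24 for Ecel1 with Olig3, whose size depends on the prior count since that group had 0 counts.

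Per kilobase of exon, the scale on which genes can be compared, the order of mean levels changed between groups. With Olig2, Gadd45a led at 25.9 ± 7.66 CPM per kilobase, followed by Anxa2 at 14.1 ± 8.84, Lgals1 at 9.46 ± 3.38, Tnfrsf12a at 8.91 ± 5.37, Gal at 1.87 ± 1.70, Adcyap1 at 0.757 ± 0.893, Sprr1a at 0.394 ± 0.683 and Ecel1 at 0.265 ± 0.184. With Olig3, Gadd45a at 16.9 ± 14.9 and Tnfrsf12a at 11.4 ± 3.21 led, Lgals1 had 2.02 ± 2.15 and Anxa2 1.24 ± 2.01, and the other 4 lay below 0.4. With GFP, Gal had 65.4 ± 99.3, Lgals1 53.7 ± 43.1, Gadd45a 49.5 ± 14.1, Tnfrsf12a 28.4 ± 7.10, Anxa2 24.4 ± 13.7, Adcyap1 7.03 ± 6.61, Ecel1 6.89 ± 2.61 and Sprr1a 4.82 ± 6.18 (SD, n = 3 in each group). Neighbours in each order differed by less than the larger of their SDs, except Gadd45a and Anxa2 with Olig2, Tnfrsf12a and Gal with Olig2, Tnfrsf12a and Lgals1 with Olig3, Gadd45a and Tnfrsf12a with GFP, and Anxa2 and Adcyap1 with GFP.

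Markers of several cell types moved with the groups. The 11 lens markers held 0.000296 to 0.000738% of the counts with Olig2, 0.00169 to 0.0353% with Olig3 and 0.0112 to 0.415% with GFP, lowest in GFP library 3. For both factors together 9 of the 9 tested were lower at an unadjusted p below 0.05, against 5.14% of all tested genes. Their counts lay mainly in GFP libraries 1 and 2, which also enter the filter on low counts. The number lower therefore describes these markers and is no separate support. The 13 T and B lymphocyte markers held 0.0182 to 0.0475% with Olig2, 0.00220 to 0.00429% with Olig3 and 0.000803 to 0.00510% with GFP, so that every Olig2 library was above every GFP library. The part of these cells in the levels of the members was not tested. Among ganglion cell markers, the summed level was 303, 472 and 252 CPM in Olig2 libraries 1, 2 and 3, 282, 369 and 267 CPM in Olig3 libraries 1, 2 and 3, and 1958, 956 and 1207 CPM in GFP libraries 1, 2 and 3, without TMM factors. The count of each member was therefore also expressed as a percentage of the marker counts of its library, a measure chosen after the data were seen. On this scale Ecel1 stood at 0.205, 0.273 and 0.176% in the Olig2 libraries, 0% in the Olig3 libraries and 1.46, 1.72 and 3.22% in the GFP libraries. It was here the 1 member with all 6 Olig libraries below the GFP libraries (exact permutation p = 0.0238). The 17 markers include Stmn2, which is also in the list of other injury effectors read below. With TMM factors it had 15.8 to 55.3 CPM in the Olig2 libraries, 0.293 to 30.3 in the Olig3 libraries and 82.0 to 240 in the GFP libraries. The denominator in Olig3 library 3 came from 9 of the 17 markers, since the other 8, the 4 defining ones named above among them, had 0 counts. As a percentage of Slc17a6 counts alone, a scale added after the data were seen and without a value in that library, Ecel1 stood at 16.7, 5.69 and 4.35% in the Olig2 libraries, 0% in Olig3 libraries 1 and 2 and 20.1, 12.4 and 24.7% in the GFP libraries. Olig2 library 1 then lay above GFP library 2, so the groups overlapped (exact permutation p = 0.0714).

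Gal lay at 0.339 ± 0.304% with Olig2, 0.0506 ± 0.0877% with Olig3 and 4.98 ± 7.74% with GFP (exact permutation p = 0.0714, both factors against GFP), and Olig2 library 3 exceeded GFP library 1. For Tnfrsf12a the shares were 4.34 ± 2.18%, 7.51 ± 4.11% and 4.92 ± 1.89% (exact permutation p = 0.762), and for Gadd45a 12.9 ± 6.21%, 7.93 ± 4.97% and 8.17 ± 3.77% (exact permutation p = 0.595). Lgals1 gave p = 0.143, Adcyap1 0.0952, Sprr1a 0.238 and Anxa2 0.857 in the same exact test. Averaged over both factors, the shares of Gadd45a, Tnfrsf12a and Anxa2 were higher than with GFP, the opposite of their CPM. By single factor this held for Gadd45a and Anxa2 with Olig2 only and for Tnfrsf12a with Olig3 only. Anxa2 stood at 16.6 ± 14.3% with Olig2, 0.976 ± 1.48% with Olig3 and 8.74 ± 5.81% with GFP, and at 32.5% in Olig2 library 1. Relative to Slc17a6 the averages over both factors of Gadd45a (exact permutation p = 0.0357), Tnfrsf12a (0.0714), Anxa2 (0.571) and Lgals1 (0.821) were higher than with GFP. Each of these genes was highest in Olig2 library 1, where Slc17a6 had 24 counts, with Anxa2 at 2642% and Lgals1 at 175%. In Olig3 libraries 1 and 2 Lgals1 stood at 3.70 and 14.7%, below the GFP libraries at 19.6% or more. Every Gadd45a value with a factor was above every GFP value. The exact p-values of this paragraph are not adjusted for the 8 genes.

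**Figure D3:**
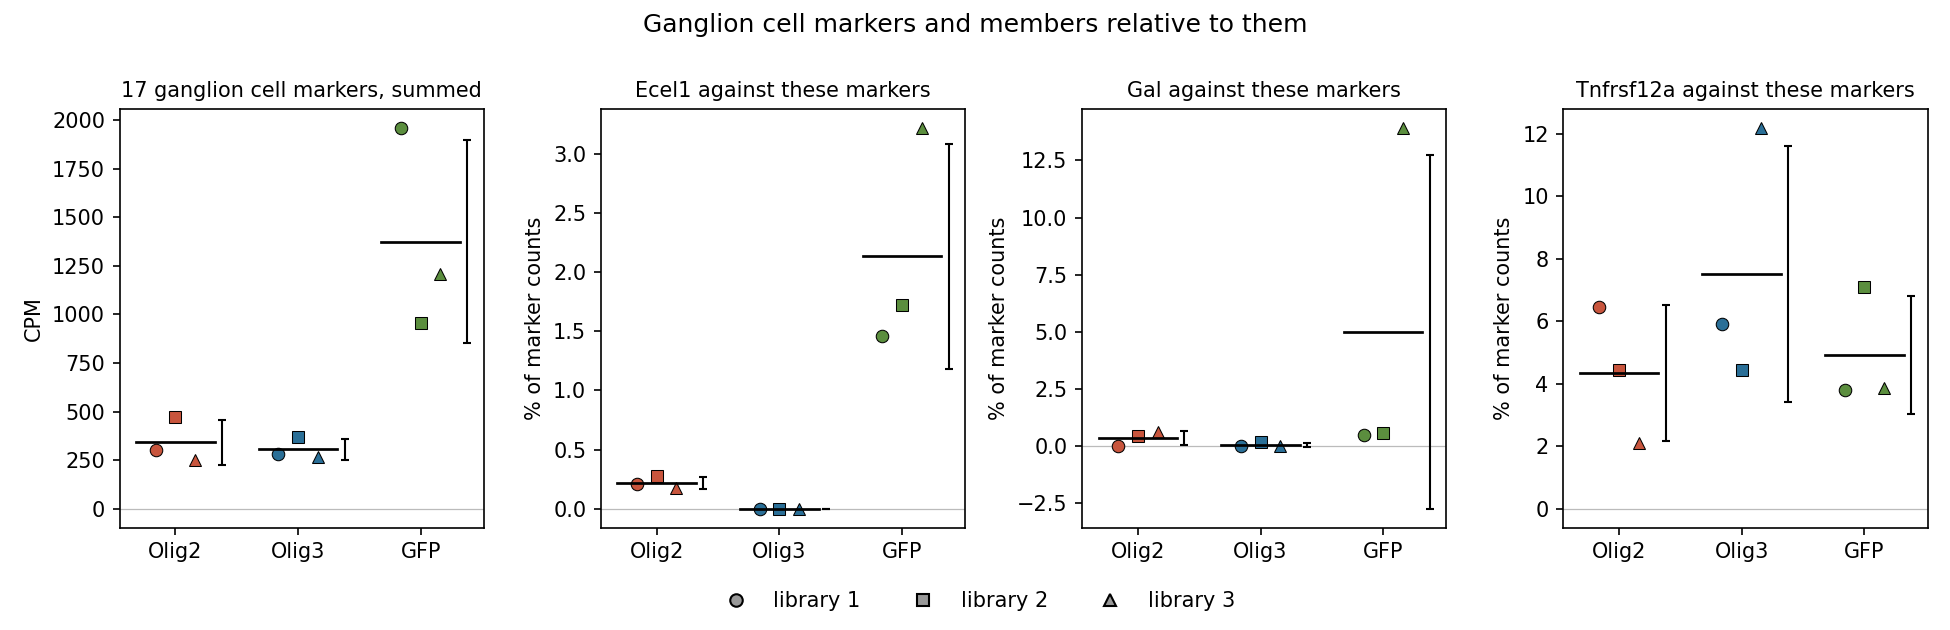
Left, summed level of 17 ganglion cell markers (CPM); right, the counts of Ecel1, Gal and Tnfrsf12a as a percentage of those marker counts, for the Olig2, Olig3 and GFP libraries (symbols: libraries; line and bar: mean ± 1 SD, n = 3). Ecel1 is at most 0.273% in the Olig libraries and at least 1.46% in the GFP libraries, while the shares of Tnfrsf12a overlap between all groups.

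The other injury genes were read from 4 lists. Over all tested genes, 0.109% were called lower with Olig3 and 0.103% with both factors together. Of 20 injury transcription factors and kinases, 19 were tested, and 1, Junb, was called with Olig3 and with both factors together. Junb, an AP-1 subunit, averaged 103 ± 21.9 CPM with Olig2, 55.8 ± 15.6 with Olig3 and 243 ± 40.8 with GFP and fell with Olig3 (log2 change -2.13, SE 0.28, edgeR adjusted p = 0.0319); leaving out Olig3 library 2 gave an adjusted p of 0.0104 and leaving out any other library 0.0550 to 0.144. The call with Olig3 was also lost in a fit of the Olig3 and GFP libraries alone (0.168). For both factors together Junb had an adjusted p of 0.0211 (edgeR), and 0.0659 to 0.0943 without any 1 GFP or Olig2 library. With Olig3, 6.37% of all tested genes lay below GFP at an unadjusted p below 0.05. Of the 19, 7 lay below GFP and 1 above it at that p. The 1 above was Map3k12, which encodes the injury kinase DLK and is named after its values were seen, at 297, 237 and 324 CPM in the Olig2 libraries, 332, 285 and 316 CPM in the Olig3 libraries and 157, 150 and 172 CPM in the GFP libraries. Every Olig library was above every GFP library (log2 change 0.90, SE 0.18, edgeR adjusted p = 0.0785 for both factors together), and DESeq2 called it higher in all 3 comparisons against GFP and limma-voom with Olig3 and with both together. The median difference of this list was -0.67 with Olig2 and -1.35 with Olig3. Atf3, the factor best known from axotomised neurons and named after its values were seen, had 41.7, 41.0 and 45.2 CPM in the Olig2 libraries, 1.77, 29.3 and 28.6 CPM in the Olig3 libraries and 145, 94.7 and 210 CPM in the GFP libraries. Its groups did not overlap, and edgeR did not call it (edgeR adjusted p = 0.134 for both factors together). DESeq2 called Atf3 lower with Olig3 and with both together, and limma-voom with both together. With Olig3, DESeq2 called 6 of 20 genes of this list lower, Atf3 and Junb among them, and 1 higher. It called 2.12% of its 29429 genes in that comparison, in either direction.

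Of 24 other injury effectors 21 were tested, and 0.109% of all tested genes were called lower with Olig3 and 0.103% with both factors together. Here 1, Fgf2, a growth factor made by injured neurons and glia, was called with Olig3 and with both factors together. It averaged 71.7 ± 25.6 CPM with Olig2, 37.9 ± 5.29 with Olig3 and 173 ± 55.0 with GFP, and fell with Olig3 (log2 change -2.19, SE 0.34, edgeR adjusted p = 0.0363), with an adjusted p of 0.0226 without Olig3 library 2, of 0.0621 to 0.144 without any other library and of 0.168 in a fit of the Olig3 and GFP libraries alone. For both factors together Fgf2 had an adjusted p of 0.0419 (edgeR), 0.0580 without Olig3 library 1 and 0.0738 to 0.206 without any 1 GFP or Olig2 library. The Fgf2 gene overlaps Nudt6 on the opposite strand, so its counts are uncertain. The median difference of the list was -1.16 with Olig2 and -2.15 with Olig3. At an unadjusted p below 0.05, 5 and 12 of its genes were lower and 0 higher, against 2.08 and 6.37% of all tested genes lower. Gap43, a growth cone protein named after its values were seen, had 20.5, 56.0 and 26.4 CPM in the Olig2 libraries, 0.442, 27.5 and 0 CPM in the Olig3 libraries and 349, 72.2 and 297 CPM in the GFP libraries (edgeR adjusted p = 0.167 for both factors together).

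The relatives of the members had a median difference of -0.18 with Olig2 and -1.15 with Olig3. Of 22 relatives 14 were tested, and 0 were called by edgeR in a comparison against GFP (by DESeq2 0, 2 and 2, and by limma-voom 0, 1 and 1, for Olig2, Olig3 and both together). In the same order 4, 6 and 7 relatives were lower at an unadjusted p below 0.05, against 2.08, 6.37 and 5.14% of all tested genes. The 3 with the smallest p for both factors together were Lgals3, Anxa1 and Gadd45b, and others lay on the other side of 0 with Olig2, such as Anxa3 at a log2 change of 0.68 (edgeR adjusted p = 1.0). Lgals3, the galectin of activated phagocytes and glia, had 2.43, 19.1 and 8.43 CPM in the Olig2 libraries, 7.82, 14.3 and 0 CPM in the Olig3 libraries and 71.2, 127 and 247 CPM in the GFP libraries (edgeR adjusted p = 0.0808 for both factors together). Anxa1, another annexin, averaged 26.0 ± 1.42 CPM with Olig2, 7.49 ± 11.7 with Olig3 and 181 ± 186 with GFP (edgeR adjusted p = 0.135 for both together). Gadd45b, a stress-induced paralog of Gadd45a, averaged 46.3 ± 6.84, 18.1 ± 10.4 and 85.0 ± 18.9 CPM in the same groups (edgeR adjusted p = 0.143 for both together). Of the 17 receptors, ligands and partners of the members, 12 were tested and 0 were called by edgeR, DESeq2 or limma-voom. For both factors together 1 lay above GFP and 1 below it at an unadjusted p below 0.05, against 5.14% of all tested genes below it. The median difference of this list was 0.37 with Olig2 and -0.16 with Olig3.

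**Figure D4:**
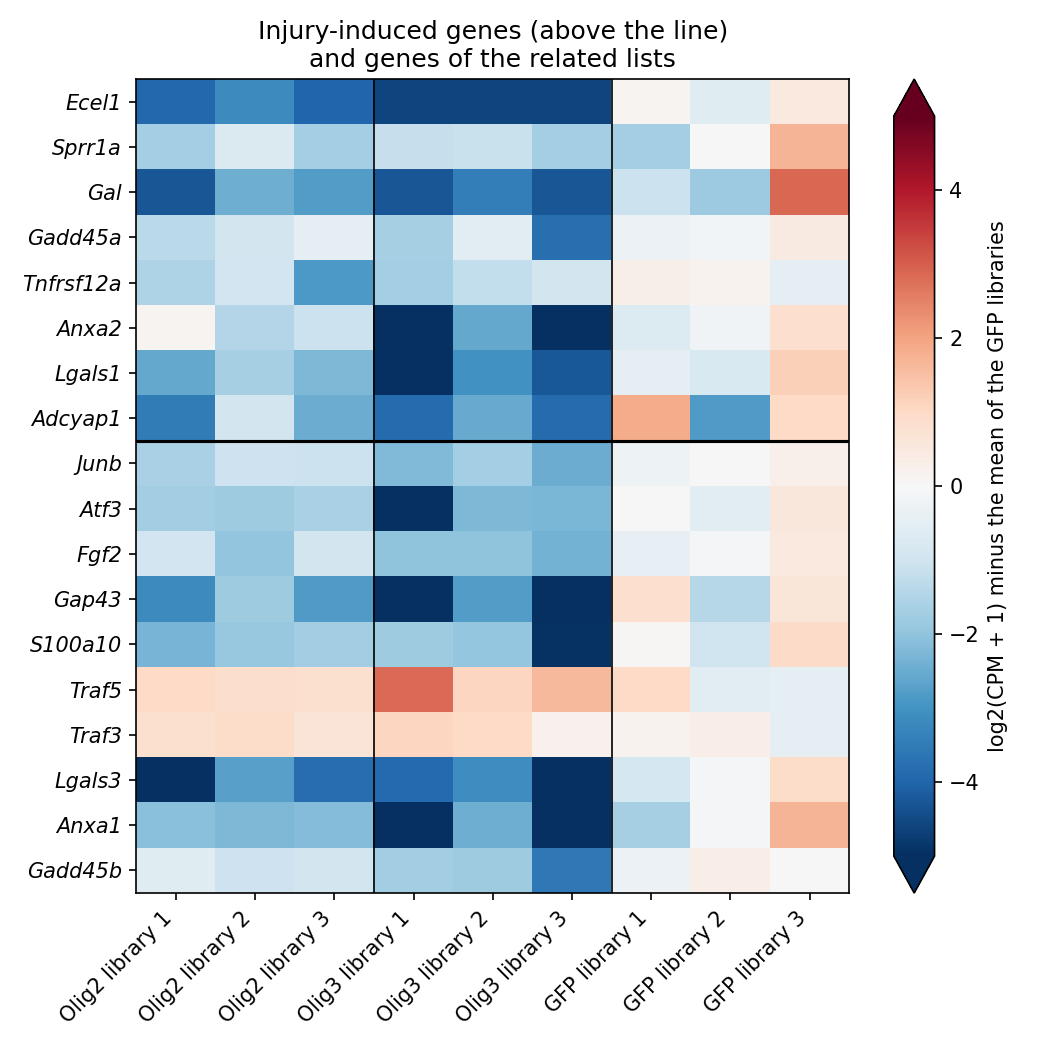
Colour gives log2(CPM + 1) of each gene in each of the 9 libraries minus its mean over the GFP libraries (values beyond -5 or 5 share the end colour); the 8 injury-induced genes are above the line and 10 genes of the related lists below it. Blue runs through most rows of the Olig2 and Olig3 libraries, with Traf5 and Traf3 as the exceptions, and Gal, Adcyap1 and Sprr1a vary within the GFP libraries. Anxa2 in Olig2 library 1, at 90.5 CPM, is not blue. The 10 genes below the line were chosen by their calls or p-values against GFP or after their values were seen. Their colours are therefore no separate support, and Map3k12, higher in every Olig library, is not drawn.

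The tested members varied together across the 9 libraries to different degrees. Over the 21 pairs, Pearson's r of log2 CPM had a median of 0.70 and ran from 0.20 for Gadd45a with Tnfrsf12a to 0.90 for Ecel1 with Lgals1 and for Gal with Lgals1; these values describe libraries that share group, depth and cell makeup. Among the genes most like the mean profile of the tested members, of 8986 compared, were Sgcb, Zfyve28, Stradb and Clic1, with r from 0.97 to 0.98 and Spearman's rho from 0.92 to 0.98. Taking each member alone, the gene most like it was Zfyve28 for Ecel1, Anapc2 for Gal, Prrc1 for Gadd45a, Vps33a for Tnfrsf12a, Sbspon for Anxa2, Racgap1 for Lgals1 and Penk for Adcyap1 (r from 0.92 to 0.99, n = 9 libraries). Penk, which encodes the precursor of the enkephalin peptides, had 92.2, 2.16 and 289 CPM in GFP libraries 1, 2 and 3, low in the same GFP library as Adcyap1.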

How the data were processed

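Polyadenylated RNA of hand-picked retinal cells was measured in 9 libraries (3 with Olig2, 3 with Olig3, 3 with GFP), amplified over 20 cycles, per the labels' protocols. The values are raw counts, as deposited, 1 whole number for each gene and library. FastQC, HISAT2 and HTSeq and the build mm10 are named per the submitters' processing notes; nothing used here gives their versions, filters or strand option. Totals per library and the floors they set are in the text.

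Counts were tested with edgeR 4.0.16 (R 4.3.3): TMM factors, filterByExpr (15609 genes tested), 1 model with a mean for each of the 3 groups, leaving 6 residual degrees of freedom, quasi-likelihood F test and Benjamini-Hochberg adjustment over all tested genes. The SE is the size of the log2 change divided by the root of F. Contrasts were each factor against GFP, the mean of both against GFP, and Olig3 against Olig2. Exact permutation tests (SciPy 1.17.1) were two-sided, on means of CPM. Folds are ratios of group means, or of counts pooled over groups where so named. The 89 identifiers without a symbol, with 0.00220 to 0.0165% of the counts, name genes and were kept.

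The members, lists and tests were chosen with earlier results of these data known. Genes of lists were named where they passed against GFP, otherwise the 3 with the smallest p for both factors together; Atf3, Gap43, Map3k12, Anxa3, Traf1, Traf2, Tnfsf12 and the peptide receptors were named after their values were seen. Likeness was computed against genes with a mean of at least 10 CPM, and 1 gene that this rule names is not reported here. Coordinates are of GENCODE M21 (50712 identifiers matched) and promoters of RefSeq, with 7 of 8 members matched. The alternatives were RLE and upper quartile scaling, DESeq2 1.42.0, limma-voom (limma 3.58.1), other filters, fits of the groups compared, a replicate block, an adjusted p of 0.1, leaving out libraries, and CPM without TMM factors; scaling by ganglion cell markers or by Slc17a6 was chosen after the data were seen.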

Additional observations from a re-analysis of the deposited data

How the results depend on the processing

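All changes of single members kept their direction against GFP in every refit except that of Anxa2 with Olig2, whose log2 change was 0.00082 without the 3 libraries richest in Malat1 (Olig2 libraries 2 and 3 and Olig3 library 2), which leaves a lone Olig2 library assumed to vary like the other groups. Of 548 refits of single members, 20 lost and 35 gained a call. Between the factors, Gadd45a turned to 0.34 without Olig3 libraries 1 and 3, and Tnfrsf12a, at 0.36, ranged from -0.037 without Olig2 library 3 to 0.84 without Olig2 library 2. The number of members called with Olig2, 0 of 7, became 1 with DESeq2, with a fit of the groups compared and without Olig3 libraries 1 and 3, and 3 with no filter on low counts. With Olig3, where 1 was called, 4 were called by DESeq2, 6 with no filter and 2 at an adjusted p of 0.1, and 0 with a fit of the groups compared or without Olig3 libraries 1 and 3. For both factors together, where 1 was called, it was 4 with DESeq2, 7 with no filter, 2 with only genes at 10 CPM in 3 libraries, 3 at an adjusted p of 0.1 and 0 without the 3 libraries richest in Malat1. Between the factors, where 0 were called, it was 1, Anxa2, with no filter and without the 3 libraries richest in Malat1. Leaving out each library gave 0 with Olig2 throughout, 0 to 3 with Olig3, 0 to 3 for both together and 0 to 1 between the factors; without Olig3 library 2 the calls against GFP were Anxa2, Ecel1 and Lgals1. The cause of these shifts was not tested.

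Library numbers are shared between groups, but same-numbered libraries did not deviate together (r from -0.06 to 0.11 over 9 pairs, 1 pair above 0.1). With the replicate number as a block, 0 members were called with Olig2, 0 with Olig3, 0 for both together and 0 between the factors, and Ecel1 had an edgeR adjusted p of 0.109 with Olig3 and 0.0902 for both; Junb (0.0762) and Fgf2 (0.0873) lost their calls with Olig3 too, and Fgf2 for both together (0.0847). Without the libraries richest in Malat1 the values of Ecel1 were 0.0762 and 0.187. Relative to ganglion cell markers, exact permutation p became 0.0714 for Gal and 0.143 for Lgals1, against 0.0238 each on CPM. The average over both factors turned in direction for Gadd45a (0.595), Tnfrsf12a (0.762) and Anxa2 (0.857), in each case with 1 factor only. Relative to Slc17a6 the exact permutation p became 0.0714 for Ecel1 and 0.357 for Gal. The average over both factors turned in direction for Gadd45a (0.0357), Tnfrsf12a (0.0714), Anxa2 (0.571) and Lgals1 (0.821), each highest in Olig2 library 1, which had 24 Slc17a6 counts. CPM without TMM factors changed none of the 8 exact tests' side of 0.05. Depth limits the folds of Ecel1, Gal and Sprr1a with Olig3, which had 0, 3 and 5 counts in that group. Over all genes, edgeR called 8 with Olig2, 32 with Olig3, 19 with both together and 6 between the factors. In the same order DESeq2 called 116, 625, 433 and 105 (0.394, 2.12, 1.47 and 0.357% of 29429 genes), edgeR with no filter 176, 556, 476 and 140 (0.598, 1.89, 1.62 and 0.476%), fits of the groups compared 23, 0, 19 and 2, and fits without Olig3 libraries 1 and 3 41, 0, 32 and 0. The filter at 10 CPM gave 6, 42, 52 and 5, an adjusted p of 0.1 gave 11, 87, 77 and 12, limma-voom 6, 78, 97 and 1, the block 10, 0, 11 and 8, and leaving out the libraries richest in Malat1 5, 20, 1 and 8. The members' counts above are to be read against these. DESeq2 gave Gal no adjusted p with Olig2 or Olig3. Leaving out each library gave 0 to 24, 0 to 505, 0 to 224 and 2 to 160.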
